A study of Mus musculus with 20 samples.

Results

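The set described here holds the nuclear receptor PPAR gamma (Pparg) and genes of fatty acid uptake and lipid droplets in mouse liver. It was listed as 10 genes, Pparg, Cd36, Fabp4, Mogat1, Plin2, Plin4, Cidea, Cidec, Adipoq and Cfd, and a probe set was taken for a gene where the platform annotation gave that gene as its single symbol. This found 14 probe sets of 9 genes among 18193 genes with a probe set of their own symbol. Cfd had no such probe set and was not analysed here. A level filter (mean signal at or above the median probe set, 84.7) left 22519 of 45037 probe sets to test, among them 11 of the 14 and the main probe set of 8 of the 9 genes. Adipoq did not pass it. The rule uses no measured value, but the 10 genes were listed with earlier results of these arrays known. Counts over the 8 genes that passed do not speak for all members.

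The livers came from male C57BL/6J mice exposed over the whole body to 137Cs gamma rays from 8 weeks of age, and their RNA was hybridised to 20 Affymetrix arrays. In experiment 2, which lasted 401 days, mice were unirradiated controls or received 0.05 (low), 1.00 (medium) or 20.0 mGy per day (high), for totals of 20, 401 and 8015 mGy. In experiment 1, which lasted 485 days, they were controls or received 0.042 (low), 0.858 (medium) or 16.6 mGy per day (high), for totals of 20.6, 416 and 8030 mGy. The 6 irradiated groups were each represented by 3 single mice, while each control was 1 array of RNA pooled from 6 mice in experiment 2 and 3 mice in experiment 1. All mice were of 1 strain and sex, and livers were taken when irradiation ended. The design sets dose levels against unirradiated liver and repeats the comparison in a separate experiment. Because a pool shows no spread between mice, differences from control rest on 2 arrays that were assumed to vary like single mice.

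The authors had scaled the arrays to a common trimmed mean, and array medians ran from 81.1 to 104.6. Hepatocyte markers were bright, with 9 of 9 on the array tested and Alb between 51943 and 85184 on all arrays. The Gapdh 3′ to 5′ ratio, a measure of RNA integrity and labelling, ran from 0.871 to 0.993 in experiment 2. In experiment 1 it ran from 0.690 to 0.769, without overlap. The Actb ratio was higher, from 2.25 to 2.61 in experiment 2 and from 1.85 to 2.15 in experiment 1, also without overlap. In whole liver, a change in the number of cells that hold a transcript and a change in the RNA per cell cannot be told apart.

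PPAR gamma is a ligand-activated receptor that binds DNA as a heterodimer with RXR, at direct repeats of the hexamer AGGTCA spaced by a single base. It is abundant in fat, where it drives adipocyte formation and lipid storage, and scarce in healthy liver, where its level is known to increase in fatty liver together with genes of lipid uptake and lipid droplets. A lipid droplet is a core of neutral lipid under a coat of proteins, among them the perilipins, and the CIDE proteins enlarge droplets by passing lipid between them.

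The stretch of 250 bases just before a transcription start is shown for Pparg and for each gene that passed the test of its relation with Pparg between mice, where the sequence was at hand and may be printed, because it can hold the hexamer that PPAR gamma and related receptors recognise. RefSeq windows on GRCm38.p6 were at hand for 11 starts of 8 members, of which 3 belonged to Pparg and 2 to Cidec. Each is written 5′ to 3′ on the strand of its gene, with matches to AGGTCA on either strand in capitals.
Pparg, first start, chr6:115360894-115361143, plus strand: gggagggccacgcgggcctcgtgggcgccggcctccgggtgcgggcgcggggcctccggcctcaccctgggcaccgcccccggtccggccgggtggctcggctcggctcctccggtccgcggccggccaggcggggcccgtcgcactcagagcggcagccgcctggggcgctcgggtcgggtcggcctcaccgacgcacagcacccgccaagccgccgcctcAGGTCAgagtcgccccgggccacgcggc
Pparg, second start, chr6:115362099-115362348, plus strand: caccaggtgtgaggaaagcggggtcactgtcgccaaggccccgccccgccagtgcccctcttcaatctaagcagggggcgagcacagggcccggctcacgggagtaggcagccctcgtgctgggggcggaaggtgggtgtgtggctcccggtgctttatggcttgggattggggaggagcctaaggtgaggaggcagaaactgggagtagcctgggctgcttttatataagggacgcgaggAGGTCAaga
Pparg, the third start, chr6:115421816-115422065, plus strand: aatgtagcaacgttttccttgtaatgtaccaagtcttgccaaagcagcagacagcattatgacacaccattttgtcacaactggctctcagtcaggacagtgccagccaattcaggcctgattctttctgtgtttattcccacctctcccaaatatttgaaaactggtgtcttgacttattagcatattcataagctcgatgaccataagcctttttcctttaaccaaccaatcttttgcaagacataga
Cd36, chr5:17835897-17836146, minus strand: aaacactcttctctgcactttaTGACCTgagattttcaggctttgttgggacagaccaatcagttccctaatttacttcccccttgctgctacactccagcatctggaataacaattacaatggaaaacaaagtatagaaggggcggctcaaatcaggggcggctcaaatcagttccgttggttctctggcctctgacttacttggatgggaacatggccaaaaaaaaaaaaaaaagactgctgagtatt
Mogat1, chr1:78510810-78511059, plus strand: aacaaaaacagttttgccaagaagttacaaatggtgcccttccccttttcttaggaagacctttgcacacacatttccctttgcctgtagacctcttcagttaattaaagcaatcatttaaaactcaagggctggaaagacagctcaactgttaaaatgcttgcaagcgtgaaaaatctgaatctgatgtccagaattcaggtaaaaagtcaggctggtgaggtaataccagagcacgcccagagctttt
Plin2, chr4:86670060-86670309, minus strand: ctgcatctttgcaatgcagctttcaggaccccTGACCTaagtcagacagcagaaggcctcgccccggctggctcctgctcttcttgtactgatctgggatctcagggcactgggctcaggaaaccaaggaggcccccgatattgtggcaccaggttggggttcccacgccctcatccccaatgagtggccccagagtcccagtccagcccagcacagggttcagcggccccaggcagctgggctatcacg
Cidec, first start, chr6:113435761-113436010, minus strand: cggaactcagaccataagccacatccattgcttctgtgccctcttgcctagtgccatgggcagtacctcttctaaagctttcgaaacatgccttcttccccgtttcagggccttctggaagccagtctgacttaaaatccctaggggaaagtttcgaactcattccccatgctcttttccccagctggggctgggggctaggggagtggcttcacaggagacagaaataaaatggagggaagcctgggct
Cidec, second start, chr6:113434765-113435014, minus strand: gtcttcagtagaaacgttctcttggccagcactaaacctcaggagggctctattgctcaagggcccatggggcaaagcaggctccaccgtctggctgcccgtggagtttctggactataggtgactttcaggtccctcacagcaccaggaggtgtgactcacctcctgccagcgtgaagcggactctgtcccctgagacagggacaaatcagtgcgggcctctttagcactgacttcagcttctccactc
The hexamer lay 28 to 23 bases before the first Pparg start and 9 to 4 bases before the second, both on the gene's own strand. It lay on the opposite strand 228 to 223 bases before the Cd36 start and 218 to 213 bases before the Plin2 start. These were 4 of the 11 windows, and 14.0% of all 32851 windows of 250 bases held the hexamer. The full repeat AGGTCANAGGTCA was in 0 of the 11 windows and in 0.0335% of all windows. The second Pparg window also held TATAAA, on the opposite strand 29 to 24 bases before the start, a sequence found in 12.4% of all windows. The core of a C/EBP site, TTGCNNAA, which overlapped no hexamer match, was in the second window of Cidec and in the third window of Pparg, against 9.56% of all windows. These matches describe letters only.

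None of the 8 tested members was called in any comparison of dose levels, and none of their 3 other tested probe sets was. The share of all probe sets called (limma, Benjamini-Hochberg adjusted p under 0.05, both directions) was itself small, at 0.0577% for high against control, 0.0355% for medium against control and 0% for low against control. Among irradiated mice the share was 0.0178% for high against low, 0% for medium against low and 0% for high against medium. The 3 comparisons with control share the same pools. At an unadjusted p under 0.05 they held 1793, 1477 and 936 probe sets in the order high, medium and low, high against low held 2316, and medium against low and high against medium held 1768 and 885. The widest difference among the members was that of Pparg, and the members differed from each other in how the irradiated mice lay around their pool. For the other 7 genes the log2 difference from control ran from -0.34 (Cidec) to 0.39 (Fabp4) in high, from -0.28 (Cidec) to 0.35 (Cidea) in medium and from -0.38 (Cidec) to 0.20 (Fabp4) in low mice. In high against low their estimates were all above 0, from 0.04 (Plin2) to 0.44 (Cidea), none with an adjusted p below 0.61. The plot of differences between dose levels gives all 6 comparisons for the 8 genes.

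**Figure D1:**
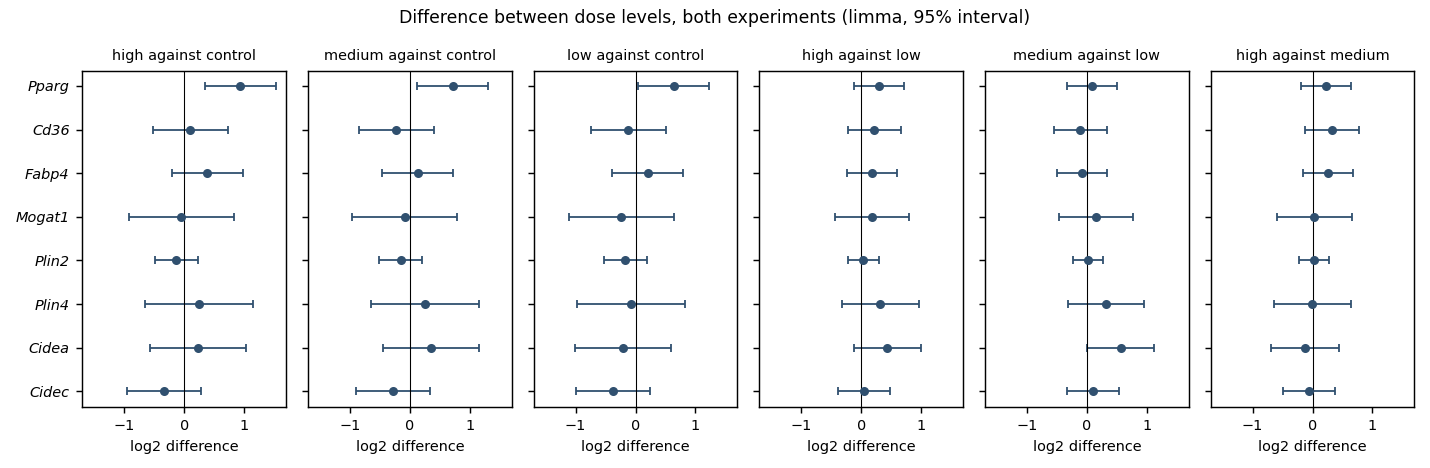
Difference between dose levels in log2 signal (x axis) for each of 8 genes (rows), from the additive limma model fitted to 20 arrays. Points are estimates and bars are 95% intervals. The intervals of Pparg lie above 0 in the 3 comparisons with control, none of these passed adjustment over 22519 probe sets, and all other intervals cover 0.

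Pparg, the receptor itself, was higher than its control pool in 17 of 18 irradiated mice. The 9 irradiated mice of an experiment were all set against the same pool, so these are not 18 independent comparisons. In experiment 2 the Pparg signal was 626 in the control pool, 573, 747 and 1197 in low mice, 875, 734 and 1182 in medium mice and 893, 850 and 1496 in high mice. Experiment 1 gave 471 in the control pool, 938, 600 and 1288 in low mice, 709, 950 and 1011 in medium mice and 791, 1279 and 1149 in high mice. In experiment 2 the first low mouse lay below the pool, whereas in experiment 1 the pool was the lowest array. Over both experiments the level averages were in the order control, low, medium and high. The means were 548 over the 2 pools and 890 ± 304 (SD) in low mice. They were 910 ± 178 in medium and 1076 ± 279 in high mice (SD, n = 6 per dose level). Experiment 2 alone had this order, with 839 in low, 930 in medium and 1080 in high mice. In experiment 1 medium mice, at 890, were below low mice, at 942, and high mice were at 1073. The 3 irradiated levels overlapped widely, and medium did not differ from either neighbour beyond the spread. The log2 difference was 0.22 ± 0.20 (SE) for high against medium and 0.08 ± 0.20 for medium against low.

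The log2 difference of Pparg from control was 0.94 ± 0.28 (SE) for high, with an unadjusted p of 0.00324, an adjusted p of 0.32 and 6 of 6 mice above their pool. It was 0.71 ± 0.28 for medium (unadjusted p = 0.0196, adjusted p = 0.66, 6 of 6 mice) and 0.64 ± 0.28 for low (unadjusted p = 0.0354, adjusted p = 1.00, 5 of 6 mice). The direction was the same within each experiment, with high minus control at 0.73 ± 0.42 in experiment 2 and 1.15 ± 0.42 in experiment 1. One setting changed the call. When each pool was weighted by its number of mice, the high difference was 0.89 with an adjusted p of 0.0137, in a fit that called 855 probe sets against 13 without weights.

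**Figure D2:**
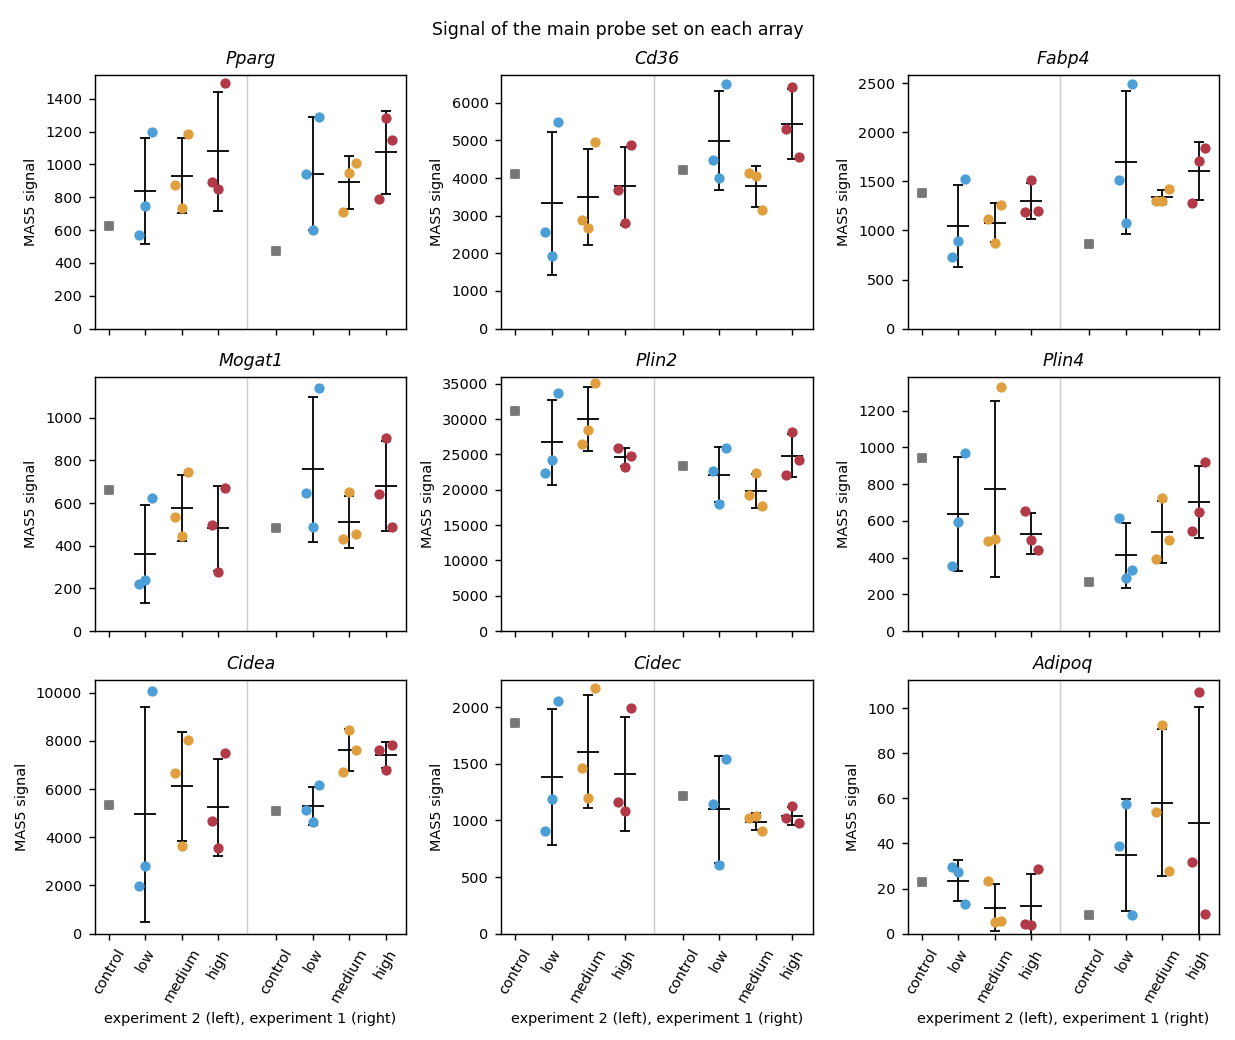
MAS5 signal (linear y axis, arbitrary units) of the main probe set of 9 genes on each of 20 arrays, by dose level within experiment 2 (left of the grey line) and experiment 1 (right). Squares are control pools, dots are single mice, and bars give the mean and SD of 3 mice. Pparg is above its pool, a single array per experiment, in 17 of 18 mice. The low mice of experiment 2 hold the widest spread of Cidea, with signals of 1969, 2807 and 10064.

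Cd36 encodes a membrane protein that takes up long-chain fatty acids, and Fabp4 a cytosolic fatty acid binding protein of adipocytes, macrophages and endothelial cells. The main Cd36 probe set read 4106 in the control pool, 2564, 1919 and 5493 in low mice, 2874, 2667 and 4959 in medium mice and 3686, 2805 and 4881 in high mice in experiment 2. The experiment 1 arrays gave 4213 in the control pool, 4475, 4007 and 6497 in low mice, 4143, 4047 and 3150 in medium mice and 5297, 6411 and 4569 in high mice. Irradiated mice lay on both sides of their pool, with 8 of 18 above it. The log2 difference was 0.10 ± 0.30 (SE) for high against control and 0.22 ± 0.21 for high against low, with adjusted p values of 0.96 and 0.77. The other 2 Cd36 probe sets, also tested, varied between mice with the main one, at r of 0.89 and 0.85 over 18 mice, and none was called in a comparison of dose levels. They ranged from 869 to 2469 and from 378 to 1077 over the 20 arrays.

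Fabp4 was read by 4 probe sets, of which 2 passed the level filter. Its main probe set read 1381 in the control pool, 729, 888 and 1521 in low mice, 1116, 868 and 1256 in medium mice and 1192, 1515 and 1199 in high mice in experiment 2. For Fabp4 experiment 1 gave 867 in the control pool, 1511, 1073 and 2496 in low mice, 1300, 1304 and 1418 in medium mice and 1276, 1708 and 1840 in high mice. Of the irradiated mice, 2 of 9 were above their pool in experiment 2 and 9 of 9 in experiment 1. The log2 difference over both experiments was 0.39 ± 0.28 (SE) for high against control (adjusted p = 0.77). The second tested probe set of Fabp4 ranged from 266 to 1082 over the 20 arrays, with a log2 difference of -0.0032 ± 0.35 (SE) for high against control, and followed the main one only in part (r = 0.49 over 18 mice), so statements on Fabp4 depend on the probe set. The other 2 lay between 3.13 and 116 on all arrays, below the level filter.

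Mogat1 encodes an acyltransferase that turns monoacylglycerol into diacylglycerol, a step towards triglyceride. Its signal was 661 in the control pool, 220, 240 and 624 in low mice, 536, 447 and 747 in medium mice and 496, 276 and 671 in high mice in experiment 2. In experiment 1 it was 484 in the control pool, 647, 488 and 1140 in low mice, 434, 654 and 453 in medium mice and 645, 904 and 486 in high mice. The 3 low mice of experiment 2 were below their pool and the 3 low mice of experiment 1 above theirs. The log2 difference over both experiments was -0.05 ± 0.42 (SE) for high against control and 0.18 ± 0.30 for high against low (adjusted p = 0.98 and 0.88).

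Plin2, or adipophilin, is the perilipin that coats droplets in hepatocytes. Its signal was 31130 in the control pool, 22408, 24171 and 33631 in low mice, 26491, 28462 and 35064 in medium mice and 25874, 23275 and 24722 in high mice in experiment 2. In experiment 1 it was 23406 in the control pool, 22630, 18003 and 25843 in low mice, 19220, 22417 and 17723 in medium mice and 22125, 28146 and 24184 in high mice. This was the steadiest member, and 13 of 18 irradiated mice were below their pool. Its 95% interval for high against low, -0.21 to 0.29 on the log2 scale, was the narrowest interval for that comparison in the set.

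Plin4 is a perilipin found on small droplets of fat and muscle. Its signal was 942 in the control pool, 356, 592 and 967 in low mice, 492, 502 and 1328 in medium mice and 656, 497 and 440 in high mice in experiment 2. Experiment 1 gave 268 in the control pool, 614, 288 and 334 in low mice, 395, 725 and 494 in medium mice and 544, 646 and 922 in high mice. The mice lay differently around their pools, with 2 of 9 above in experiment 2 and 9 of 9 in experiment 1. For high against control the log2 difference was -0.84 in experiment 2 and 1.33 in experiment 1, and the difference between experiments, -2.17 ± 0.77 (SE), had an unadjusted p of 0.0114 and an adjusted p of 0.75.

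Cidea, a droplet-enlarging protein best known from brown fat, and Cidec, its relative from white fat, also gave no call between dose levels. The Cidea signal was 5327 in the control pool, 1969, 2807 and 10064 in low mice, 6672, 3623 and 8040 in medium mice and 4675, 3571 and 7490 in high mice in experiment 2. For Cidea experiment 1 gave 5086 in the control pool, 5127, 4619 and 6176 in low mice, 6727, 8461 and 7640 in medium mice and 7614, 6783 and 7819 in high mice. In experiment 2 the third low mouse had the highest signal of all 20 arrays, while in experiment 1 the medium and high mice were all above the highest low mouse. The log2 difference was 0.56 ± 0.27 (SE) for medium against low and 0.44 ± 0.27 for high against low, with unadjusted p values of 0.0517 and 0.123, and adjusted p values of 0.64 and 0.61.

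The Cidec signal was 1863 in the control pool, 907, 1190 and 2058 in low mice, 1461, 1197 and 2165 in medium mice and 1164, 1079 and 1989 in high mice in experiment 2. The values of experiment 1 were 1216 in the control pool, 1146, 605 and 1539 in low mice, 1019, 1042 and 907 in medium mice and 1024, 1127 and 974 in high mice. In contrast to Pparg, 14 of 18 irradiated mice were below their pool for Cidec. The log2 difference for high against control was -0.34 ± 0.30 (SE; adjusted p = 0.82).

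Adipoq encodes adiponectin, a hormone released by fat cells. Its probe set had signals between 3.97 and 107 over the 20 arrays, most of them below the array medians, and did not pass the level filter. Its pools read 22.7 in experiment 2 and 8.31 in experiment 1. No statement on dose can be made at that level.

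The difference between experiments in high against low was also tested, and it called 0 of the 8 members and 0.00444% of all probe sets. Across all dose levels, experiment 2 differed from experiment 1 in 42.2% of all probe sets, and in 3 of the 8 members. Plin2 was higher in experiment 2 by 0.30 ± 0.09 (SE) on the log2 scale (adjusted p = 0.0140). Over 9 irradiated mice each it was at 27122 ± 4482 in experiment 2 and 22255 ± 3523 in experiment 1 (SD). In high mice alone Plin2 was not higher, with means of 24624 in experiment 2 and 24819 in experiment 1. In the same order the means were 26737 and 22159 in low mice and 30006 and 19787 in medium mice. Cidec was higher by 0.48 ± 0.16 (adjusted p = 0.0219), at 1468 ± 476 in experiment 2 and 1043 ± 245 in experiment 1. Cd36 was lower in experiment 2, by -0.42 ± 0.17 (adjusted p = 0.0445), with signals of 3539 ± 1273 in experiment 2 and 4733 ± 1129 in experiment 1. The ranges of the experiments overlapped for all 3 genes. The call of Cd36 was lost in 17 of 29 other settings, 12 of which left out a single mouse, with adjusted p between 0.0105 and 0.0906 over the 29. The other 2 tested probe sets of Cd36 were not called, at -0.26 ± 0.17 and -0.25 ± 0.17 (adjusted p = 0.23 and 0.24). The calls of Plin2 and Cidec were lost in none of the 29. The second tested probe set of Fabp4 was lower in experiment 2 by -0.82 ± 0.19 (adjusted p = 0.00169), at 354 ± 78.9 in experiment 2 and 694 ± 285 in experiment 1, whereas its main probe set was not called (-0.32 ± 0.16, adjusted p = 0.10). Duration, age at death, dose rate and the processing of each experiment cannot be told apart here, and the share of members called was close to that of all probe sets.

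The members varied widely between mice of the same group. The within-group SD of log2 signal was 0.61 for Cidea, 0.57 for Plin4, 0.56 for Mogat1, 0.46 for Cidec, 0.46 for Cd36, 0.43 for Pparg, 0.38 for Fabp4 and 0.21 for Plin2. The median over all tested probe sets was 0.27. Because dim probe sets vary more, each SD was ranked among the 1000 probe sets nearest in mean signal. Cidea, Plin4, Cidec and Mogat1 stood at the 98.7, 98.5, 98.0 and 97.9 percentiles, Cd36, Pparg and Fabp4 at 97.4, 96.7 and 95.7, and Plin2 at 86.4. This ranking is a description of the arrays, with no test.

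**Figure D3:**
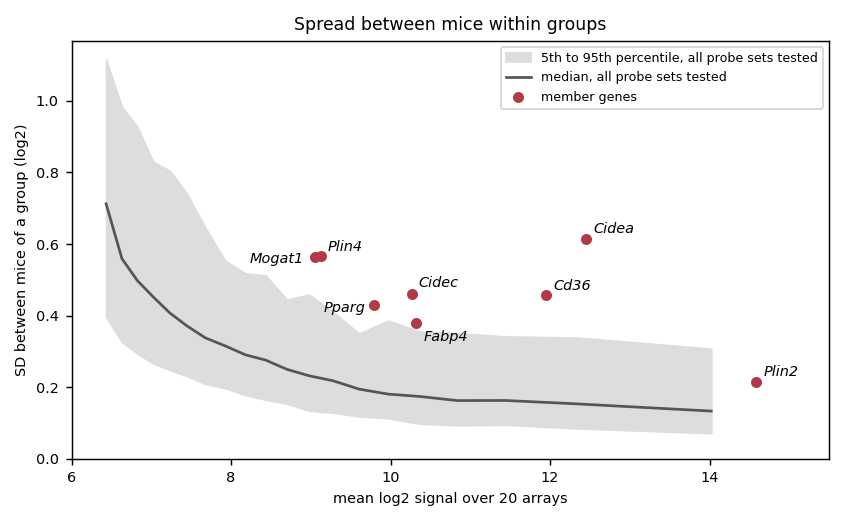
Standard deviation of log2 signal between mice of the same group (y axis) against mean log2 signal over 20 arrays (x axis). The line is the median and the grey band the 5th to 95th percentile of all tested probe sets at that signal, and the 8 dots are member genes. All 8 lie higher than the line at its nearest point, with Cidea at 0.61 and Plin2 at 0.21.

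The same mice were high for several members at once. In experiment 2 the third low mouse was the highest of its group for 8 of 8 members, and so was the third medium mouse. The first low mouse of experiment 2 was the lowest for 7 of 8. In the low group of experiment 1, the third mouse was the highest for 7 of 8 members and the second the lowest for 8 of 8. In the other 3 groups the mouse that was highest most often led for 5 of 8 members. It was the third high mouse in experiment 2, and the second medium and the second high mouse in experiment 1. The third mouse was thus the most frequent leader in each irradiated group of experiment 2. Whether mice with the same number share handling was not tested. The third low mouse of experiment 2 was at 4.21-fold the mean of its group mates for Cidea, 2.72-fold for Mogat1, 2.45-fold for Cd36, 1.96-fold for Cidec and 1.82-fold for Pparg.

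**Figure D4:**
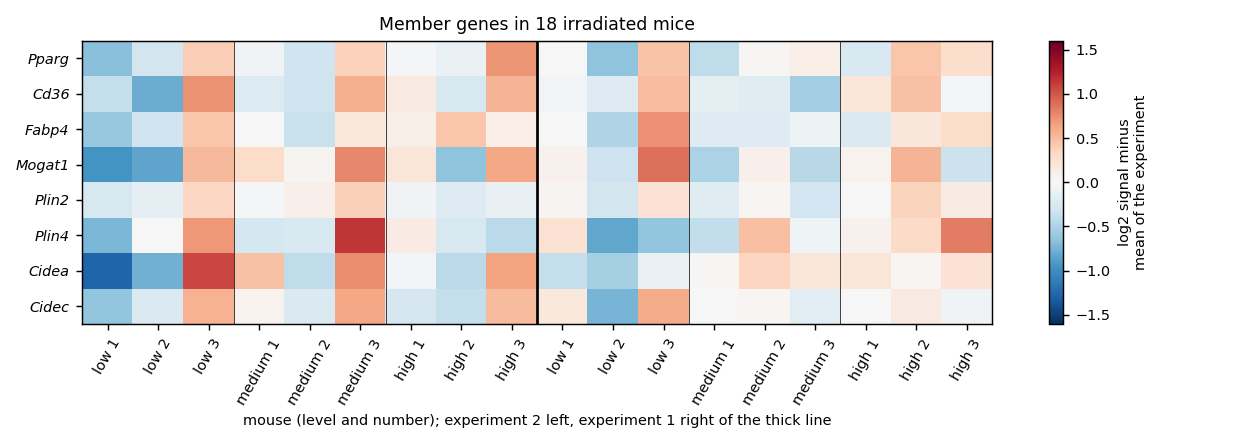
Log2 signal minus the mean of its experiment (colour, red above and blue below) for 8 genes (rows) in 18 irradiated mice (columns, by dose level and mouse number). In experiment 2 the mice low 3 and medium 3 are red, and in experiment 1 the mouse low 2 is blue, for 8 of 8 genes.

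To put a size on this, the relation of Pparg to each of the 8 other measured genes was computed over the 18 irradiated mice, on log2 signals with the mean of each experiment taken off and with p from 100000 permutations within experiment, adjusted over the 8 relations. Of the 8 relations 6 passed at an adjusted p under 0.05. These p values carry 2 limits. The genes were listed with earlier results of these arrays known, and the permutations did not keep mice with the same number together. The closest was Cidec, with Pearson r = 0.83 (permutation p = 5e-05, adjusted 0.0004) and Spearman rho = 0.78 (permutation p = 0.00023, adjusted 0.00092). Fabp4 followed at r = 0.78 and rho = 0.81 (permutation p = 0.00027 and 0.00015, adjusted 0.00108 and 0.00092), but this holds for its main probe set only. The second tested probe set of Fabp4, set against Pparg after the data were seen, did not pass, with r = 0.14 and rho = 0.11 (permutation p = 0.57 and 0.66, adjusted 0.57 and 0.66) and r of 0.44 in experiment 2 and -0.0088 in experiment 1. For Mogat1 r was 0.75 and rho 0.77 (permutation p = 0.00075 and 0.00045, adjusted 0.00186 and 0.0012). All 3 relations were positive in both experiments. For Cidec r was 0.91 in experiment 2 and 0.73 in experiment 1, for Fabp4 0.71 in experiment 2 and 0.87 in experiment 1, and for Mogat1 0.83 in experiment 2 and 0.64 in experiment 1.

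For Cd36 r was 0.72 and rho 0.70 (permutation p = 0.00136 and 0.00189, adjusted 0.00218 and 0.00378), and its other 2 probe sets, likewise set against Pparg afterwards, passed at r = 0.61 and 0.89 (adjusted permutation p = 0.0137 and 8e-05). For Cidea r was 0.71 and rho 0.68 (permutation p = 0.00093 and 0.0031, adjusted 0.00186 and 0.00496). The relation of Cidea was closer in experiment 2, at r = 0.89, than in experiment 1, at r = 0.39, a difference that was not tested. For Plin2 r was 0.64 and rho 0.60 (permutation p = 0.00661 and 0.0116, adjusted 0.00881 and 0.0155). In these 6 cases the mice with more Pparg were, in the main, the mice with more of the other transcript. Plin4 did not pass (r = 0.49, rho = 0.43, permutation p = 0.0485 and 0.0817, adjusted 0.0554 and 0.0934). Adipoq, near background, had r = -0.20 and rho = -0.13 (adjusted permutation p = 0.43 and 0.62). Without the 2 mice farthest from the median of Pparg, r stayed between 0.59 for Cidea and 0.81 for Fabp4 among the 6 that passed, and was 0.61 for Plin4. With the mean of each group of 3 mice taken off in place of that of each experiment, r of the 6 lay between 0.70 and 0.89, and Plin4 passed as well (r = 0.54, adjusted permutation p = 0.0310). Plin4 also passed without the third high mouse of experiment 2 (r = 0.68, adjusted permutation p = 0.00485) or without the third low mouse of experiment 1 (r = 0.63, adjusted permutation p = 0.0132). The values of a mouse all come from 1 array and share its scale. With every array centred on its own median, r of the 6 lay between 0.72 and 0.86, and that of Plin4 was 0.52 (adjusted permutation p = 0.0387).

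**Figure D5:**
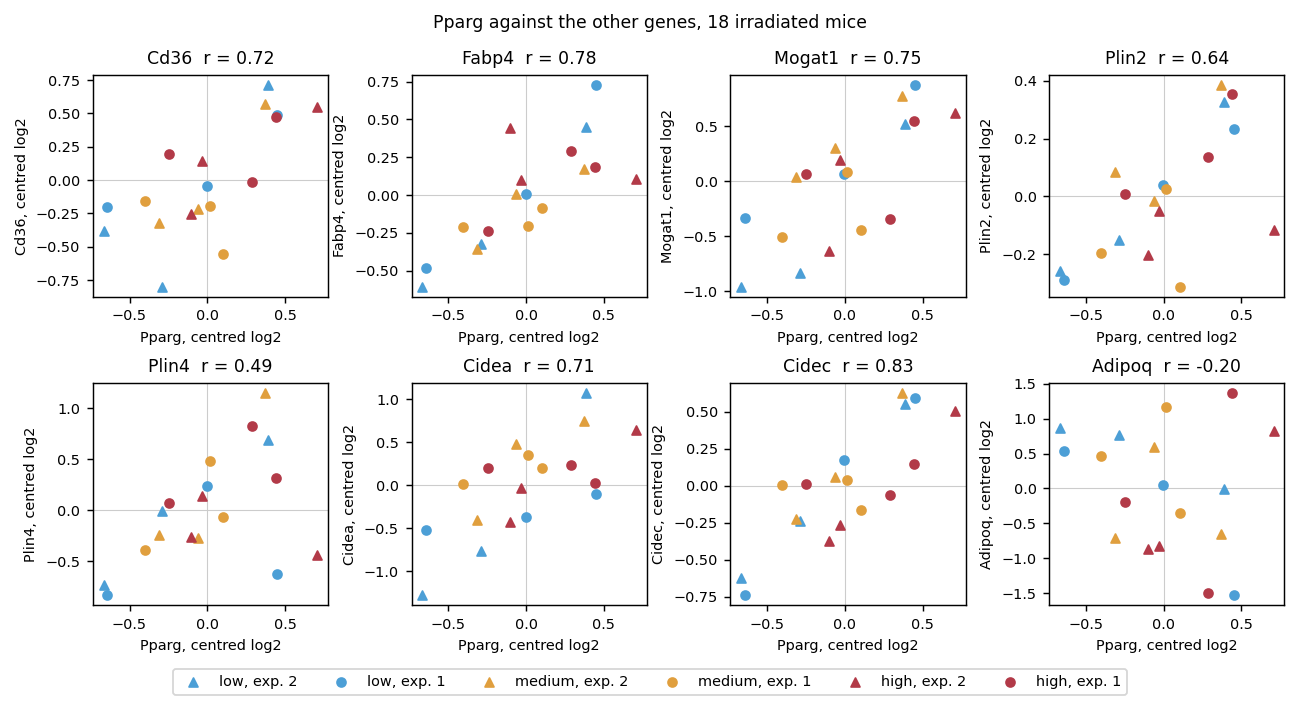
Pparg (x axis) against each of 8 other genes (y axis) in 18 irradiated mice, as log2 signal minus the mean of the experiment. Colour gives the dose level and shape the experiment, and r is Pearson's over 18 mice. Cidec is the closest to Pparg at r = 0.83, and Adipoq did not pass at r = -0.20.

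The genes were related to one another as well as to Pparg. Over the 28 pairs of the 8 tested members, r was above 0 in 28 and at least 0.5 in 23, with a median of 0.67 and a range of 0.33 to 0.85. The highest pair was Cd36 with Mogat1, and the lowest was Mogat1 with Plin4. Among 11216 other tested genes ordered by r with Pparg, Cidec ranked 5, Fabp4 19, Mogat1 33, Cd36 68, Cidea 69, Plin2 182 and Plin4 670. These ranks are descriptive, since the members were listed with earlier results of these arrays known.

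Beyond the members, the gene whose values over the 18 mice were most like those of Pparg was Ermp1 (r = 0.90), followed by Vnn1 (r = 0.86). For Cidec they were Ermp1 (r = 0.90) and Col1a2 (r = 0.89), and for Mogat1 they were Gstm3 (r = 0.93) and S100a10 (r = 0.90). Cbr3 (r = 0.92) and Rad51b (r = 0.89) were most like Cd36, and Ms4a7 (r = 0.84) and Mpeg1 (r = 0.80) most like Fabp4. Arsb (r = 0.89) and Slc25a47 (r = 0.86) were most like Plin2. Plin4 stood closest to Ppara, the receptor of fatty acid oxidation (r = 0.82), and then to Bbs5 (r = 0.77). Cidea stood closest to Cep20 (r = 0.89) and to Fitm1, which acts in droplet formation (r = 0.89), mainly in experiment 2, where r was 0.95 and 0.96, against 0.49 and 0.55 in experiment 1.

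In 5 lists of related genes, 103 genes in all with 95 on the array and 88 tested, the share that varied with Pparg at r of at least 0.5 differed by list. It was 5 of 17 among other PPAR target genes (29.4%), a list that does not separate targets of PPAR gamma from those of Ppara. Among droplet proteins and lipases it was 3 of 21 (14.3%), and in triglyceride synthesis 2 of 15 (13.3%). For fatty acid uptake and binding it was 2 of 16 (12.5%), and for partners and regulators of the receptor 1 of 19 (5.26%). Of all 11216 tested genes, 611 did (5.45%). The members other than Pparg gave 6 of 7. The highest in each list, picked after their values were seen, were Vnn1 and Pex11a (r = 0.86 and 0.82), Fitm1 and Mgll (r = 0.68 each), Gpat3 and Scd2 (r = 0.75 and 0.52), and Vldlr and Fabp2 (r = 0.66 each). Among partners, Ppara had r = 0.67 and the C/EBP factor Cebpa had r = -0.49.

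In the comparisons of dose levels, 2 of these 88 genes were called, and both were lower in high mice than in control. In high against control 0.0577% of all probe sets were called. The lists were chosen with earlier results of these arrays known, so the count is descriptive. Angptl4, which encodes a secreted inhibitor of lipoprotein lipase and is a known PPAR target, was read by a probe set of the _s_at type, which can match several transcripts, and fell by 1.61 on the log2 scale (SE 0.30, adjusted p = 0.0348). Lpin2, a phosphatidate phosphatase of triglyceride synthesis, fell by 0.76 (SE 0.13, adjusted p = 0.0290). Its relative Lpin1 gave a log2 difference of -1.18 ± 0.29 (SE; adjusted p = 0.22). The call of Angptl4 was lost in 14 of 33 other settings and that of Lpin2 in 9, among them for both the fit without the pool of experiment 1, where the differences were -1.47 (adjusted p = 0.57) and -0.52 (adjusted p = 0.85). Without the pool of experiment 2, Angptl4 had an adjusted p of 0.0641. Leaving out 7 single mice in turn also ended the call of Angptl4, with adjusted p up to 0.0786, and leaving out the first or the third high mouse of experiment 2 ended that of Lpin2. The other genes named had the smallest p values within their own lists. In high against low, Fabp1 and Cebpd were at 0.19 ± 0.06 and -0.78 ± 0.22 (SE). Ces1d, Pnpla3 and Cyp4a14 were at 0.28 ± 0.09, 1.21 ± 0.43 and 0.66 ± 0.20 in that comparison. Cav1 was at 0.61 ± 0.22 in medium against control, and Ppara at -0.56 ± 0.18 in low against control. All of these had adjusted p between 0.18 and 0.97.

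The median log2 difference for high against control was 0.01 over all probe sets and 0.04 for other PPAR targets (10 of 17 above 0). It was -0.01 for droplet proteins and lipases (10 of 21) and -0.10 for triglyceride synthesis (7 of 15). For uptake and binding it was 0.15 (12 of 16), and for partners -0.09 (8 of 19). In experiment 2 against experiment 1 the lists held, in the same order, 8 of 17, 10 of 21, 9 of 15, 7 of 16 and 11 of 19 called genes, beside 42.2% of all probe sets.

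Markers of other cells were set beside these results. Of 11 adipocyte markers 9 were on the array, and 2 were tested, the lipase gene Lipe and the glucose transporter Slc2a4, which were above the array median on 20 and 19 of 20 arrays. Adig was above it on 6 arrays, Acvr1c on 2, Retn and Tusc5 on 1 each, and Lep, Aqp7 and Nnat on 0, with a median signal of 6.32 for Lep. The summed adipocyte signal ranged from 597 to 806 in the pools, 501 to 955 in low, 582 to 990 in medium and 490 to 1063 in high mice, and its mean log2 level had r = -0.15 with Pparg (adjusted permutation p = 0.64 over 11 relations). For the stellate cell markers, 8 of 9 were on the array and all 8 were tested. Their mean log2 level moved with Pparg at r = 0.81 and rho = 0.78 (adjusted permutation p = 0.00154 and 0.00495). Without the 2 mice farthest from the median of Pparg r was 0.73. As a list the stellate markers had r = 0.85 in experiment 2 and 0.76 in experiment 1. Their summed signal ranged from 13646 to 18908 in the pools, 11864 to 21869 in low, 14906 to 21617 in medium and 15957 to 21511 in high mice.

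The stellate markers closest to Pparg were Col3a1 (r = 0.85), Pdgfrb (r = 0.74) and Dcn (r = 0.69). The rest were lower, with r of 0.44 for Lrat, 0.36 for Reln, 0.33 for Col1a1, 0.21 for Acta2 and 0.15 for Des. With the stellate list as a whole, r was 0.80 for Mogat1, 0.78 for Cidec, 0.65 for Cd36, 0.65 for Fabp4, 0.64 for Plin2, 0.55 for Cidea and 0.42 for Plin4. Of 10 brown fat and muscle markers 1 passed the level filter, and Ucp1 was above the array median on 0 of 20 arrays. The list had r = -0.66 with Pparg (rho = -0.64, adjusted permutation p = 0.0209 and 0.0340). Its r was -0.41 in experiment 2 and -0.91 in experiment 1. Its summed signal ranged from 544 to 718 in the pools, 533 to 822 in low, 404 to 763 in medium and 462 to 824 in high mice. The remaining lists did not pass, with r of -0.45 for hepatocyte, -0.43 for pancreatic acinar, -0.29 for Kupffer cell and macrophage, 0.16 for endothelial and -0.07 for blood and lymphocyte markers. Nor did the Gapdh ratio (r = -0.47), the Actb ratio (r = 0.17) or the array median (r = -0.35 over both experiments, 0.20 in experiment 2 and -0.90 in experiment 1). The part of stellate cells, of RNA quality and of array level in the shared variation of the members was not tested.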

How the data were processed

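The deposited table holds signal intensity on a linear scale for 45101 probe sets on 20 arrays, made by the authors with MAS5 per the submitters' processing notes. Its version was not stated in the sources at hand. Array controls (64) were left out. A pseudocount of 7.11, the signal at the 10th percentile, was added before taking log2, which understates fold changes of dim genes. Precision is limited by the number of arrays. Under R 4.3.3, an additive model of dose level plus experiment (residual degrees of freedom 15) was fitted by limma 3.58.1 with trended eBayes, and a fit of 8 groups (residual degrees of freedom 12) gave values within experiments. Tests were two-sided with Benjamini-Hochberg adjustment at 0.05 over all 22519 probe sets tested, and the code was tested on simulated data. Relations were computed in Python 3.11.15 with numpy 2.4.6 and figures drawn with matplotlib 3.10.9. The 18 single mice carry numbers, which the main models did not use as pairs. Same-numbered mice of different groups of an experiment had deviations correlated at -0.15 to 0.32 (median 0.06), with 5 of 18 pairs over 0.1. Mice with different numbers gave -0.21 to 0.19 (median -0.03), with 5 of 36 pairs over 0.1. Whether mice with the same number share a day or batch was not tested. The labels do not say that mice with the same number share a litter or cage. The main probe set of a gene is the brightest among those tested (among all where none was), where probe sets ending in _s_at or _x_at were taken only if a gene had no other tested one, as for 5 list or marker genes, Angptl4 among them. Genes of the lists were named if called, and otherwise the 2 with the smallest p in a list. The members and lists were chosen with earlier results of these data known. Gene names come from the platform annotation, with 34945 probe sets of 1 symbol, 932 of several and 9160 unnamed here. Alternatives covered the filter, pseudocount, normalization, model terms, pool weights and each array left out.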

Additional observations from a re-analysis of the deposited data

Results flagged for a closer look

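In 3 comparisons with control, every mouse of experiment 2 was below its pool and every mouse of experiment 1 was above. For Plin4 in high mice the log2 difference from control was -0.84 in experiment 2 and 1.33 in experiment 1, a difference between experiments of -2.17 ± 0.77 (SE, unadjusted p = 0.0114, adjusted p = 0.75, limma). For Mogat1 in low mice it was -1.02 in experiment 2 and 0.55 in experiment 1, a difference of -1.57 ± 0.77 (unadjusted p = 0.0557, adjusted p = 1.00). For Fabp4 in medium mice it was -0.37 in experiment 2 and 0.62 in experiment 1, a difference of -0.99 ± 0.53 (unadjusted p = 0.0761, adjusted p = 1.00). None passed adjustment, and each rests on a single pool per experiment.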

How the results depend on the processing

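The 48 differences between dose levels (8 genes, 6 comparisons) were recomputed in up to 34 settings, which gave 1608 values. Of these, 1607 stayed on the same side of the threshold. The exception was Pparg in high against control with pools weighted by their mice, which made the count of members called 1 in place of 0. No direction had been called, and 29 of the 48 differences changed sign in some setting while 19 did not. Pparg minus control stayed positive at all 3 levels, from 0.72 to 1.16 for high. With the mouse number as a replicate block among irradiated mice, 0 members were called in 3 comparisons and 0 probe sets against 4 in high against low. Over all probe sets the count for high against control was 13, 2 without the pool of experiment 1, 97 without the pool of experiment 2, 855 with weighted pools and 1 without a variance trend. For high against low it was 4, 60 without the third low mouse of experiment 2 and 38 without the third low mouse of experiment 1. Members called between experiments numbered 2 to 4 when 1 array was left out. Of 8 relations of Pparg, 6 to 7 passed with 1 mouse left out, and the 7th was Plin4. With the second tested probe set of Fabp4, an alternative chosen after seeing the data, r with Pparg was 0.14 in place of 0.78.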
